A study of Mus musculus with 10 samples.

Results

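The late OKS + FoxO6 culture, sampled at day 7, was compared with the OKS + DsRed control culture at day 3, to ask whether the late FoxO6 culture held the expression state of an early control culture or a different one. The comparison takes 2 of the 10 libraries of the series, identified by the arm and day in their labels, and the 11651 of 50600 genes with at least 10 expected counts in the higher of these 2 libraries. The cells were mouse embryonic fibroblasts (MEFs) from E13.5 embryos of the strain CBA/CaJ X C57BL/6J. All cultures received retroviruses for Oct4, Klf4 and Sox2 (OKS), made in PlatE packaging cells, and were kept in iCD1, a reprogramming medium. The control arm additionally received DsRed (DR in the labels), a red fluorescent protein, and the other arm received FoxO6, a forkhead transcription factor. The methods of the study describe 2 rounds of infection of MEFs at passage 3, so the factors were expressed from integrated retroviruses. Sampling covered days 0, 1, 3, 5 and 7. A single library stands for each arm at each day, so no value below has a replicate check, and every p compares the reads of 2 libraries and not the conditions.

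OKS reprogramming turns fibroblasts toward induced pluripotent stem cells. In this process the mesenchymal programme of collagens and other matrix genes is shut down, an epithelial programme of cadherin, claudins and keratins is switched on in the mesenchymal to epithelial transition, and the network around Nanog follows late. FoxO factors bind DNA through a forkhead domain. Most of them are held in the cytoplasm by insulin and AKT signalling, while FoxO6 lacks part of this control and stays largely nuclear. The family is known for targets in stress resistance, cell cycle arrest, glucose metabolism and autophagy.

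The 10 libraries held 1208379 to 2225750 expected counts, with 1464719 in DsRed day 3 and 1560854 in FoxO6 day 7. Expected counts are the reads that RSEM assigned to a gene, and TPM are these reads per effective transcript length, scaled to the same sum in every library. A transcript of 2000 nt at 1 TPM corresponded to 1.46 reads in DsRed day 3 and 1.79 in FoxO6 day 7, so genes of low level rest on few reads. 2 libraries stood apart by transcript length. The median deviation of the shortest eighth of genes from the mean of the 10 libraries, minus that of the longest eighth, was 0.71 on the log2(TPM + 1) scale in FoxO6 day 7 and 0.49 in DsRed day 0, against -0.24 to 0.01 in the other libraries. In the compared pair, the median difference fell with length from 0.24 at a median effective length of 863 nt to -0.69 at 6331 nt. This trend was removed gene by gene with a lowess curve, which moved the median over all genes from -0.20 to 0.01, and differences below are FoxO6 day 7 minus DsRed day 3 in log2(TPM + 1) after this step unless stated. Whether the trend comes from RNA quality or library preparation, or from the cells, cannot be told apart with 1 library.

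**Figure D1:**
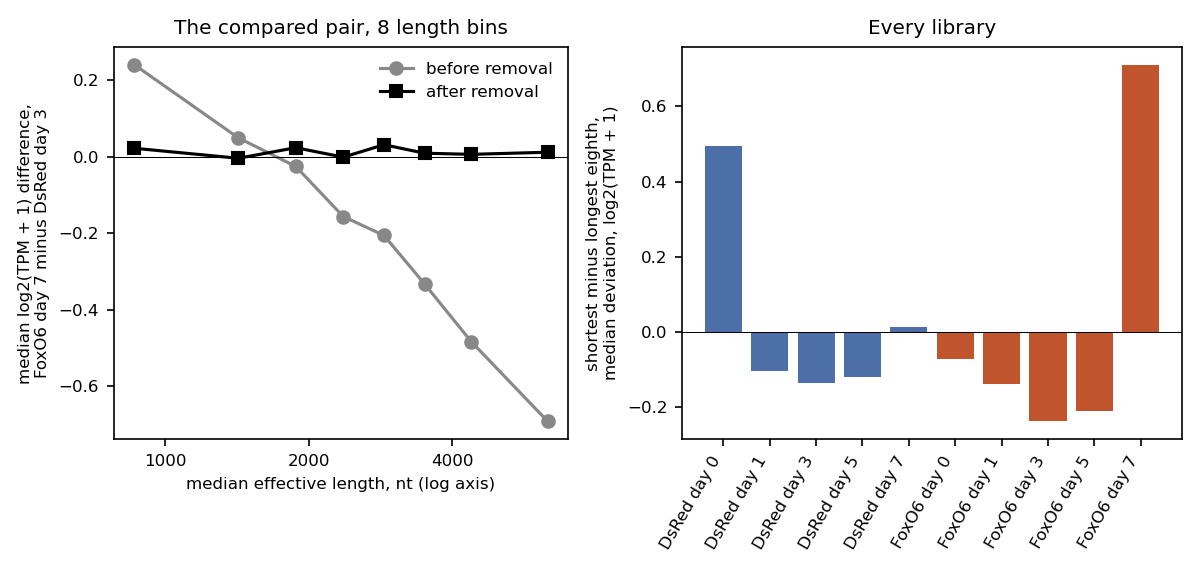
Left, median log2(TPM + 1) difference between FoxO6 day 7 and DsRed day 3 in 8 bins of effective length (log axis, nt) before and after the lowess trend was removed. Right, the shortest minus the longest eighth of genes in every library as a median deviation from the 10-library mean, blue for OKS + DsRed and orange for OKS + FoxO6, where FoxO6 day 7 (0.71) and DsRed day 0 (0.49) stand above the rest.

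The length step centres the differences, so the balance of higher and lower genes is largely set by the processing, and 5930 differences were positive and 5721 negative. With an exact binomial test on the rounded counts, Benjamini-Hochberg adjusted p under 0.05 and a difference over 2-fold, 620 genes were called higher in FoxO6 day 7 (5.32% of those tested) and 750 were called lower (6.44%), 1370 or 11.8% in all. By fold alone, without the test, 796 (6.83%) were higher and 936 (8.03%) lower. Without the length step the split became 475 higher and 1507 lower. The exact test covers read sampling only. When edgeR was given an assumed dispersion of 0.1 to stand for the missing replicates, 85 genes were called higher and 79 lower. Of protein coding genes, 575 of 11134 were called higher and 672 lower. Genes of other kinds were called more often, at 8.70% and 15.1% of 517, and 15 of the 20 genes that differed by more than 5 on the log2 scale had symbols of predicted genes or pseudogenes. Reads of near-identical copies can be split differently between libraries, so these genes are uncertain and are not named here.

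**Figure D2:**
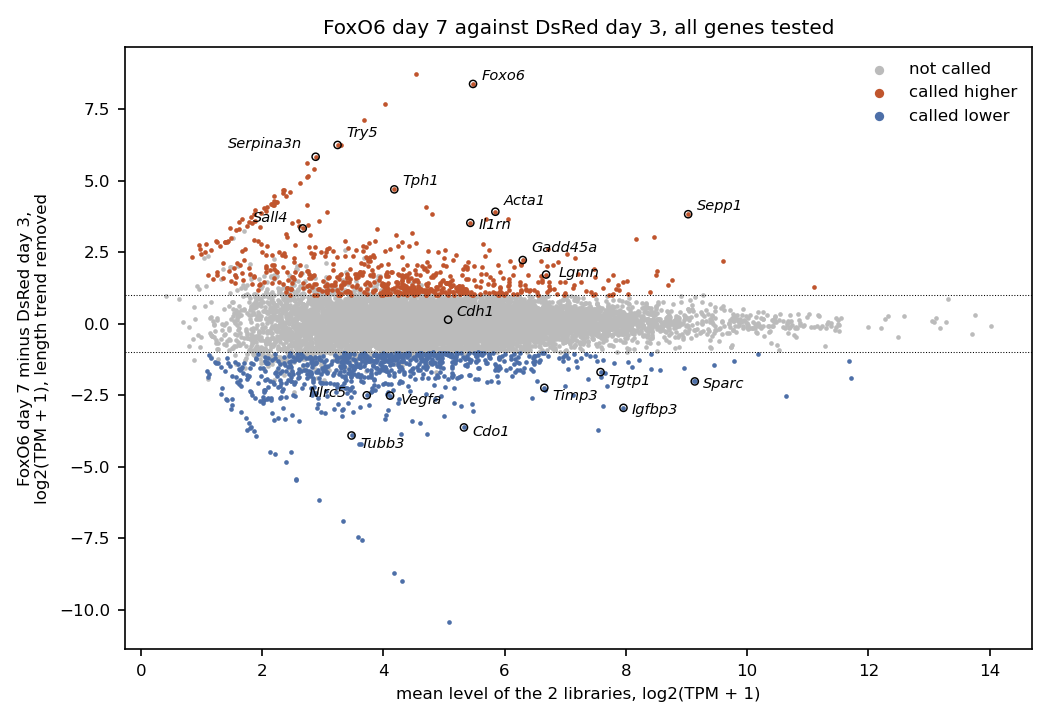
Every gene tested, with its mean level in the 2 libraries on the x axis and its difference, FoxO6 day 7 minus DsRed day 3 with the length trend removed, on the y axis, both in log2(TPM + 1). Orange points are the 620 genes called higher and blue points the 750 called lower, dotted lines mark 2-fold, and ringed genes are described in the text.

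Foxo6 (ENSMUSG00000052135, chromosome 4, 120267079 to 120287349 on the minus strand of GRCm38) separated the libraries as their labels say, at 1.61 TPM from 3 reads in DsRed day 3 and 762 TPM from 1743 reads in FoxO6 day 7. Reads of the transduced cDNA and of the endogenous gene are counted together. The other transduced genes were near equal. Pou5f1, which encodes Oct4, was at 4569 TPM in DsRed day 3 and 5379 in FoxO6 day 7, Sox2 at 2698 and 2624, and Klf4 at 2964 and 2798. Their differences of 0.15, 0.03 and 0.13 stayed under 2-fold, so of the 4 transduced genes 1 was called higher, Foxo6 itself, and none lower.

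Counted against every control day in the same way, FoxO6 day 7 had the fewest called genes against DsRed day 3. The share called was 25.04% against DsRed day 0, 19.7% against day 1, 11.8% against day 3, 12.9% against day 5 and 15.8% against day 7. These 5 contrasts share the FoxO6 day 7 library. Their calls also depend on the depth of the control library, which ran from 1208379 (day 0) to 1868566 (day 7) expected counts. The standard deviation of the differences was close for days 3 and 5, at 0.846 and 0.854. For scale, neighbouring control libraries differed in 8.17% of genes between days 5 and 3 and in 9.82% between days 3 and 1, and FoxO6 days 7 and 5 differed in 6.36%.

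Without length correction, the place of FoxO6 day 7 on the control course differed between genes that rise and genes that fall in that course. Each gene that changed at least 4-fold from DsRed day 0 to DsRed day 7 was given a place, 0 for its DsRed day 0 level and 1 for its DsRed day 7 level. The 999 rising genes had a median place of 0.669 in FoxO6 day 7, with quartiles at 0.436 and 0.879, and of 0.673 in DsRed day 3, with quartiles at 0.391 and 0.907. In 513 of them (51.4%) FoxO6 day 7 was further along than DsRed day 3. Which of the 2 medians was higher changed with the processing. After removal of each library's own length trend it was FoxO6 day 7 (0.701 against 0.629), and likewise on CPM (0.715 against 0.648), while genes that rose at least 2-fold gave 0.602 against 0.763, a pseudocount of 0.1 gave 0.727 against 0.754 and at least 30 counts gave 0.684 against 0.723.

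Falling genes had gone further in FoxO6 day 7. The 397 genes that fell 4-fold in the control had a median place of 0.871 in FoxO6 day 7, with quartiles at 0.623 and 1.09, against 0.616 in DsRed day 3, with quartiles at 0.396 and 0.874, and 0.894 in DsRed day 5. FoxO6 day 7 was further along than DsRed day 3 in 283 of them (71.3%). It had passed the DsRed day 7 level in 126 (31.7%), near the 121 (30.5%) of DsRed day 5, against 45 (11.3%) for DsRed day 3. The order of the 2 libraries was the same under the 5 alternatives run, where FoxO6 day 7 lay between 0.823 and 0.875 and DsRed day 3 between 0.580 and 0.686. Removal of each library's length trend gave 0.823 against 0.686, and CPM 0.842 against 0.674. Under both choices FoxO6 day 7 was further along among rising genes as well. In bulk RNA, fewer cells of a type and less RNA per cell cannot be told apart, here and in every result that follows.

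**Figure D3:**
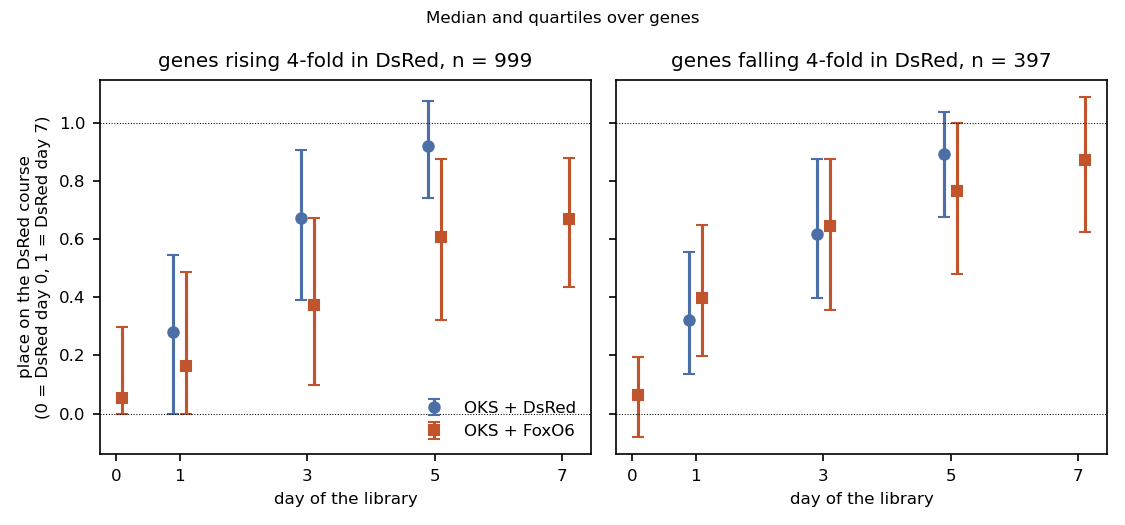
Median (points) and quartiles (bars) over genes of the place on the DsRed course, where 0 is the DsRed day 0 level and 1 the DsRed day 7 level, for genes that rose (left, n = 999) or fell (right, n = 397) at least 4-fold in OKS + DsRed. Without length correction, the FoxO6 day 7 median is 0.669 on the left and 0.871 on the right, and the DsRed day 3 medians are 0.673 and 0.616.

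FoxO6 day 7 also held more genes outside the range of the control course than DsRed day 3 did. Against the range of DsRed days 0, 1, 5 and 7, FoxO6 day 7 lay more than 2-fold above it in 176 genes and below it in 306 of 12605 (1.40% and 2.43%). DsRed day 3 lay above it in 61 and below it in 70 of 12533 (0.487% and 0.559%). Once each library's length trend was removed, the counts were 214 and 190 for FoxO6 day 7 and 45 and 82 for DsRed day 3. Against all 5 control libraries, 139 genes of FoxO6 day 7 were above and 255 below. The earlier FoxO6 libraries lay above the same 4 control days in 1.12% to 2.15% of genes and below in 1.04% to 1.51%.

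Over 31 lists of pathways, complexes and cell types, the control library with the smallest root mean square distance to FoxO6 day 7, after length correction, was day 3 for 10 lists, day 5 for 12 and day 7 for 7, with day 1 for DNA replication and day 0 for the respiratory chain. Several were near ties, such as 0.548 (day 1) and 0.560 (day 3) for DNA replication, 0.663 (day 7) and 0.686 (day 3) for type I interferon and 1.02 (day 7) and 1.03 (day 5) for the matrix list, and over all genes days 3 and 5 were at 0.885 and 0.888. The list of transduced factors reflects Foxo6. Where list members are placed against the control days below, this is by TPM without length correction. The lists follow by role, each with the members called against the 5.32% higher and 6.44% lower of all genes and a median difference of 0.01 over all genes. A member that reached 10 counts only in the library where it was high had to differ, so counts and medians describe the members that passed and not the whole list, most of all where few passed: 15 of 30 pluripotency genes, 21 of 32 epithelial genes, 15 of 28 complement and chemokine genes and 16 of 22 Wnt genes.

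**Figure D4:**
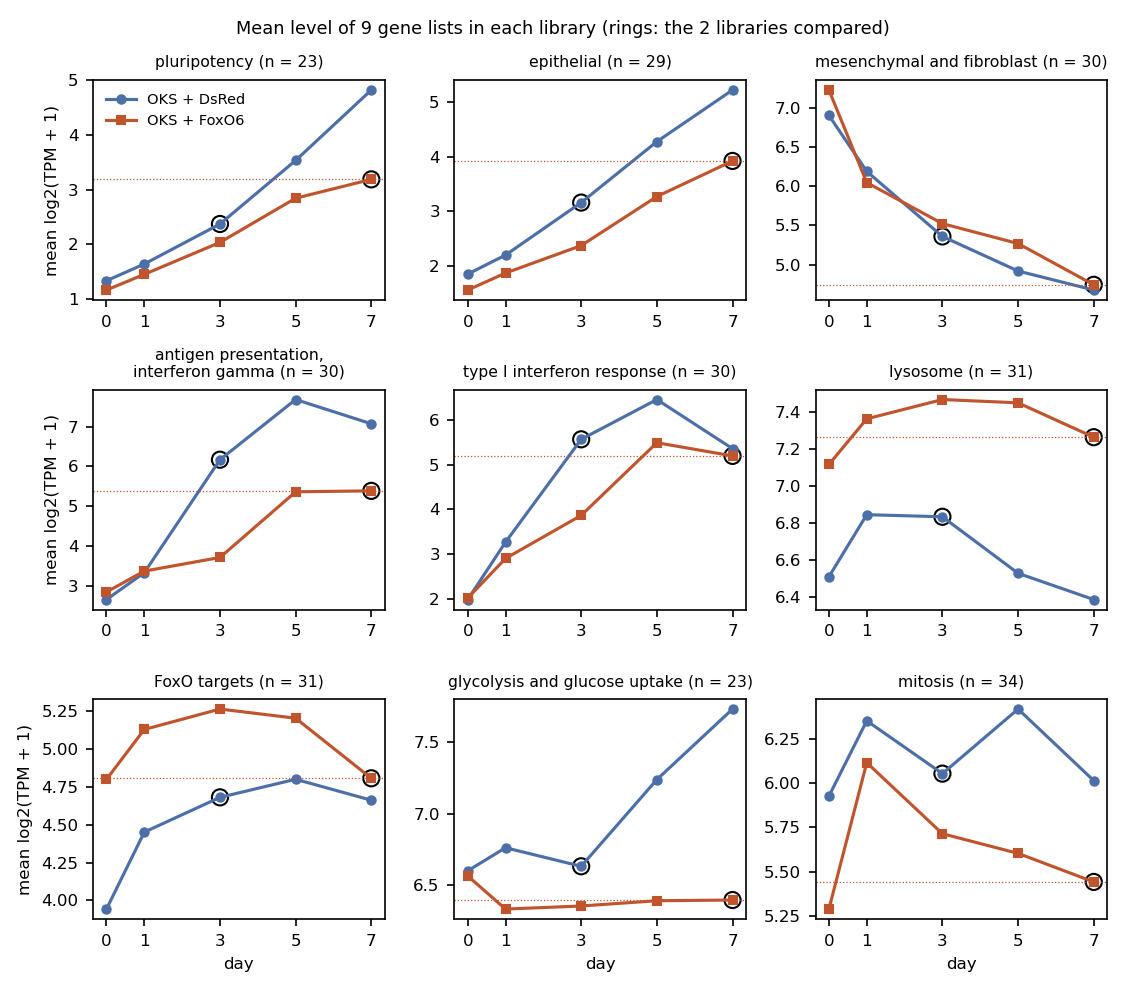
Mean log2(TPM + 1), without length correction, of 9 gene lists in every library by day, blue circles for OKS + DsRed and orange squares for OKS + FoxO6. Rings mark the 2 libraries compared and dotted lines the FoxO6 day 7 level, which lies between DsRed days 3 and 5 for pluripotency and epithelial genes, between days 1 and 3 for the interferon gamma list and above all control days for lysosome genes.

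Several pluripotency genes were called higher in FoxO6 day 7 than in DsRed day 3. Of 15 members tested, 5 were called higher and none lower, with a median difference of 0.82 (95% interval -0.42 to 2.42). Sall4, a zinc finger factor of the pluripotency network, had TPM of 0, 0.53, 1.37, 16.8 and 41.3 at days 0, 1, 3, 5 and 7 of OKS + DsRed and 0, 1.1, 1.45, 11.8 and 16.1 in OKS + FoxO6. It was 16.5-fold higher in FoxO6 day 7 than in DsRed day 3 (95% counting interval 6.64 to 52.8), near the DsRed day 5 level. Nanog, the homeodomain factor that marks the late network, had 0.71 TPM from 1 read in DsRed day 3 and 8.31 TPM from 16 reads in FoxO6 day 7, between the 0.71 TPM of DsRed day 3 and the 14.9 of DsRed day 5. Its ratio of 12.4 had a counting interval of 1.93 to 520.3. Gdf3, a ligand of the TGF beta family expressed in pluripotent cells, stood at 5.31 and 30.8 TPM, the naive state factor Tfcp2l1 at 14.4 and 25.4, and Fbxo15, an Oct4 target once used as a reprogramming reporter, at 1.00 and 21.9. Of the 5 called genes, 4 lay between DsRed days 3 and 5 in FoxO6 day 7. Fbxo15 was above every control library, the highest of which held 10.5 TPM.

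Other pluripotency genes gave small counts. Zfp42, also called Rex1, had 5 reads in DsRed day 3 and 19 in FoxO6 day 7 and was not called (adjusted p = 0.072, exact binomial test). Dppa5a had 0 and 5 reads and Esrrb 1 and 8, so neither was tested. On uncorrected differences Tfcp2l1 lost its call (0.77). With at least 30 counts required, 3 of the pluripotency genes were called and the list median was 0.12. Of the 5 calls, edgeR with the assumed dispersion kept Sall4 and Fbxo15.

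Epithelial genes were on average above DsRed day 3, but the cadherin itself was level. Of 21 members tested, 5 were called higher and none lower (median 0.65), and 19 had a positive difference. Cdh1, the E-cadherin of adherens junctions, had 3.90, 12.2, 36.7, 106 and 201 TPM over the control days and 0.58, 3.35, 2.55, 14.0 and 28.9 TPM in OKS + FoxO6. FoxO6 day 7 thus stood at 1.099 times DsRed day 3 after length correction (95% counting interval 0.841 to 1.43). Epcam, an epithelial cell adhesion molecule, had 0, 1.34, 18.7, 103 and 227 TPM in the control and 0, 3.69, 3.11, 23.4 and 59.2 in OKS + FoxO6, and was 3.31-fold higher in FoxO6 day 7 (2.15 to 5.27). Spint1, an inhibitor of membrane serine proteases, was 5.58-fold higher (3.07 to 10.96), the tight junction gene Ocln 3.51-fold (1.62 to 8.43) and the desmosomal cadherin Dsg2 3.09-fold (1.29 to 8.99). Cldn4, a claudin, had 0 reads in DsRed day 3 and 10 in FoxO6 day 7, at least 3.13-fold higher as counts per library total against a floor of 3 reads. Krt8 (32.2 and 37.1 TPM) and Esrp2 (difference 0.08) were not called. Compared on the same day, none of the 5 genes called higher was above OKS + DsRed on all 5 days, and 1 was below on all 5. Without the length step 4 members were called higher and 1 lower, and no call was kept by edgeR with the assumed dispersion.

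The mesenchymal and matrix genes were mixed. Of 26 mesenchymal and fibroblast genes tested, 7 were called lower and 2 higher (median -0.29). By TPM without length correction, 6 of the 7 lay below all 5 control libraries, in the same FoxO6 day 7 library that gave the calls. Over all genes, those more than 2-fold below DsRed days 0, 1, 5 and 7 went from 306 to 190 once the length trend was removed. The list median was -0.11 on CPM with TMM scaling and -0.50 with the length trend left in, where 9 were called lower and 1 higher. Cdh11, a mesenchymal cadherin, had 132, 82.8, 59.6, 22.8 and 16.4 TPM over the control days and 115, 52.2, 31.2, 18.2 and 6.80 in OKS + FoxO6, and was 5.68-fold lower in FoxO6 day 7 than in DsRed day 3 (3.96 to 8.39). The limb mesenchyme factor Prrx1 was 3.16-fold lower (2.61 to 3.85), Tcf4 3.12-fold (2.52 to 3.87), Fbln2 2.51-fold (2.16 to 2.91) and the repressor of epithelial genes Snai1 5.81-fold (1.62 to 31.5). S100a4, a calcium binding protein of fibroblasts, was at 125 and 48.5 TPM and the tropomyosin Tpm2 at 39.9 and 19.04. The call of Tcf4 was lost on CPM with TMM scaling, where the difference of Tcf4 was -0.89, and that of Tgfbr2 on uncorrected differences (0.86). Tgfbr2, a TGF beta receptor, was called higher, at 112 TPM in DsRed day 3 and 205 in FoxO6 day 7, and so was the growth factor receptor Pdgfrb, at 1.54 and 5.83. Thy1 (23.7 and 18.7 TPM), Twist1 (73.1 and 107) and Zeb1 (18.9 and 12.4), common markers and regulators of fibroblasts, were not called, nor was Twist2 (adjusted p = 0.0766, exact binomial test).

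Of 25 fibrillar collagen and matrix genes, 4 were called lower and 3 higher (median -0.31). Sparc, a collagen-binding glycoprotein, went from 2498 through 1708, 1141 and 546 to 560.1 TPM in OKS + DsRed and from 2285 through 807, 429 and 313 to 277 TPM in OKS + FoxO6, and was 4.05-fold lower in the compared pair (3.64 to 4.502). Timp3, an inhibitor of metalloproteinases, was 4.81-fold lower (4.06 to 5.74), Loxl2 3.52-fold (2.37 to 5.38) and Col3a1 2.44-fold (2.20 to 2.71). The proteoglycan gene Dcn was 2.60-fold higher (1.89 to 3.64), Thbs1 3.01-fold (2.43 to 3.74, with the call lost on uncorrected differences at 0.92) and Mgp had 1 and 15 reads. Col1a1 was level, at 125 and 78.8 TPM with a difference of -0.01 after length correction. These long transcripts depend on that correction, and with the trend left in 10 matrix genes were called lower and 2 higher, with a median of -0.82.

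Of 23 basement membrane and integrin genes, 4 were called lower and 2 higher (median -0.02, or -0.57 with the length trend left in). Lama5, a laminin chain of epithelial basement membranes that went from 9.83 to 195 TPM over the control course, had 69 reads in DsRed day 3 and 219 in FoxO6 day 7, 6.09-fold higher (4.63 to 8.10). Its difference was 2.53, or 1.86 with the length trend left in and 2.04 on CPM with TMM scaling. Nid1 was 2.37-fold higher (2.16 to 2.60) and its paralog Nid2 2.04-fold lower (1.64 to 2.56). The integrins Itga6, Itgav and Itgb3 were called lower, at 141 and 39.7, 82.8 and 28.1, and 5.99 and 0.99 TPM. Without length correction they lay below all control days. On uncorrected differences 7 of the 23 were called lower and 1 higher, with Nid1 at 0.58.

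The interferon gamma list held more genes called lower than any other of the 31 lists. Of 28 antigen presentation and interferon gamma genes tested, 13 were called lower and none higher, with a median difference of -1.03, and all 13 lay between DsRed days 1 and 3 in FoxO6 day 7. The control course of each of the 13 was highest at day 5. Tgtp1, an immunity-related GTPase, had 1.12, 3.35, 366, 684 and 262 TPM over the control days and 0, 0, 9.92, 91.9 and 99.05 in OKS + FoxO6, 3.24-fold lower in the compared pair (2.78 to 3.79). The largest difference in the list was that of Nlrc5, the activator of MHC class I transcription, at 36.8 TPM in DsRed day 3 and 3.64 in FoxO6 day 7 (6.998-fold lower, 4.27 to 12), the call that edgeR with the assumed dispersion kept. The related GTPases Irgm2, Igtp, Irgm1 and Iigp1 were 3.82-, 2.94-, 2.57- and 3.04-fold lower, the transcription factor Irf1 2.79-fold, the guanylate binding proteins Gbp2 and Gbp7 2.55- and 2.49-fold, the peptide transporter Tap1 2.64-fold and the immunoproteasome subunit Psmb8 2.27-fold. Tgtp2 was 4.81-fold lower, but Tgtp1 and Tgtp2 are near-identical copies whose reads can be split between them. The class I genes themselves were not called, with differences of 0.66 for H2-K1, 0.53 for H2-D1 and 0.29 for B2m.

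Promoters of these genes are shown because interferon responses act through 2 short elements, the ISRE bound by STAT and IRF complexes and the GAS element bound by STAT dimers. The sequences are RefSeq promoter windows on GRCm38.p6, 250 bases before to 50 after each start, searched on both strands for GAAA repeated after any 2 bases (ISRE) and for TTCNNNGAA (GAS). Of the 13 genes called lower, 10 had a window, of which 7 held the ISRE letters and 7 the GAS letters, against 3.44% and 8.30% of all 32851 windows in the table. In the whole list, called or not, 13 of 25 windows held the ISRE letters (52%) and 10 the GAS letters (40%). Stretches of 70 bases follow, in the direction of transcription, with matches in capitals. They lie at chr11:58214877-58214946 (plus strand) for Irgm2, chr11:58199486-58199555 (plus) for Igtp, chr11:48992290-48992359 (minus) for Tgtp1, chr11:49064249-49064318 (minus) for Tgtp2, chr3:142620579-142620648 (plus) for Gbp2 and chr11:53769899-53769968 (plus) for Irf1.
Irgm2: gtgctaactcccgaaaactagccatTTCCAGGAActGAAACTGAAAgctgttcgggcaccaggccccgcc
Igtp: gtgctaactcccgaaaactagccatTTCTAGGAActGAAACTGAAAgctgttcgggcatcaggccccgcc
Tgtp1: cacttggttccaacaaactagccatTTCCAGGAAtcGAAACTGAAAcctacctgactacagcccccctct
Tgtp2: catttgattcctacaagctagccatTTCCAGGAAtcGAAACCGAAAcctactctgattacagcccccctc
Gbp2: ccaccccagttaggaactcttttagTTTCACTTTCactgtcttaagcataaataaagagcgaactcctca
Irf1: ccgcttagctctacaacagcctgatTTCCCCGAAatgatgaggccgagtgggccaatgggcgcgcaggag
In the 4 GTPase genes the GAS letters stand 2 bases before the ISRE letters, while the Gbp2 stretch holds the ISRE letters on the opposite strand and the Irf1 stretch the GAS letters alone. A match describes the letters and does not show binding. Among all 500 genes called lower with a window, 5.60% held the ISRE letters and 9% the GAS letters.

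Of 30 type I interferon response genes, 1 was called higher and 1 lower (median -0.43), and 22 had a negative difference. On uncorrected differences 1 was called higher and 5 lower. Oas2, an antiviral 2-5A synthetase, had 0, 6.31, 167, 363 and 155 TPM in the control and 1.98, 15.0, 52.3, 395 and 368 in OKS + FoxO6, 2.79-fold higher in the compared pair (2.50 to 3.13). Cmpk2, a nucleotide kinase induced by interferon, was 2.58-fold lower (1.42 to 4.93). Ifit2 (6.57 and 1.78 TPM) and Mx1 (6.24 and 1.70 TPM) were not called.

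FoxO targets were higher in part. Of 30 tested, 7 were called higher and 1 lower, with a median difference of 0.33 that became -0.02 with the length trend left in, where 6 were called higher and 4 lower. The transcript Sepp1, which encodes the secreted selenium carrier selenoprotein P, had 51.7, 45.0, 139, 167 and 111 TPM over the control days and 327, 958, 2158, 2432 and 1949 in OKS + FoxO6. It was 14.3-fold higher in FoxO6 day 7 than in DsRed day 3 (12.3 to 16.7), above every control library by 3.54 on the log2 scale without length correction, and was the call of this list that edgeR with the assumed dispersion kept. Gadd45a, a growth arrest and DNA damage gene, stood at 27.9, 21.6, 33.3, 59.0 and 52.4 TPM in the control and 204, 188, 227, 199 and 179.99 in OKS + FoxO6, 4.795-fold higher (3.09 to 7.78). The arms did not overlap in either gene. Cited2, a co-regulator of CBP and p300, was 5.28-fold higher (3.27 to 8.95), the mitophagy receptor Bnip3 3.41-fold (1.69 to 7.61), the sestrin Sesn3 2.12-fold (1.84 to 2.44) and the IGF1 receptor Igf1r 2.01-fold (1.71 to 2.35). On uncorrected differences Igf1r (0.12) and Sesn3 (0.28) lost their calls. Klf15 had 0 and 10 reads, at least 3.13-fold higher. Tsc22d3 was the member called lower, at 13.4 and 3.5 TPM. Of the 7 called higher, 5 lay above all control days and 6 were above DsRed on each of the 5 days.

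The FoxO letters GTAAACA stood in 21 of the 446 promoter windows of genes called higher (4.71%), in 11 of 500 for genes called lower (2.20%) in 2.96% of those of all genes tested and in 3.65% of all windows. Of the 30 FoxO targets with a window 6 held them (20%), and of the 7 called higher 1, that of Sepp1, whose 70 bases before the start (chr15:3270907-3270976, plus strand) are shown because this gene had the largest difference of the list.
Sepp1: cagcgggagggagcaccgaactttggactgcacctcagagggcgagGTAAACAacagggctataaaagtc

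Lysosomal genes were higher in part. Of 31 tested, 8 were called higher and 1 lower, with a median difference of 0.60, and 27 had a positive difference. Lgmn, the protease legumain, had 66.5, 41.9, 56.3, 59.1 and 76.9 TPM over the control days and 101, 85.1, 156, 191 and 184 in OKS + FoxO6, 3.34-fold higher in the compared pair (2.58 to 4.37). Gla, an alpha galactosidase, was 2.37-fold higher (1.58 to 3.63), Hexa 2.32-fold (1.85 to 2.93), Ctsa 2.25-fold (1.95 to 2.61), Ctsb 2.06-fold (1.88 to 2.26), the sialidase Neu1 2.04-fold (1.56 to 2.68) and Ctsl 2.02-fold (1.72 to 2.38). All 8 exceeded every control library in FoxO6 day 7, and all 8 were above DsRed on each of the 5 days. On uncorrected differences 4 of the 31 were called higher and 1 lower, with Gla (0.92), Ctsb (0.52), Neu1 (0.82) and Ctsl (0.96) under 2-fold, and edgeR with the assumed dispersion kept none. The regulators Tfeb and Tfe3 had differences of -0.15 and 0.07. Cd68, a glycoprotein of lysosomes that also marks macrophages, was called lower, at 52.6 and 15.8 TPM. Of 34 autophagy genes none was called (median 0.21, or -0.02 with the length trend left in), and the cargo receptors Sqstm1 and Optn stood at 1.90 and 1.87 times their DsRed day 3 level.

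Behind Foxo6, the genes with the highest differences included several with 0 reads in DsRed day 3. Serpina3n, a serine protease inhibitor of the acute phase, had 0 reads in DsRed day 3 and 96 in FoxO6 day 7, at least 30.03-fold higher, and 3.87, 0, 0, 6.56 and 2.57 TPM over the control days against 56.2, 372, 236, 101 and 53.5 in OKS + FoxO6. The kininogen gene Kng1 was at 0 in all 5 control libraries and at 5.67, 16.9, 59.5, 30.3 and 24.6 TPM in OKS + FoxO6, at least 12.9-fold higher at day 7. Tph1, which encodes tryptophan hydroxylase, was 34.6-fold higher (17.1 to 81.4), at 2.89 and 83.7 TPM. Il1rn, the interleukin 1 receptor antagonist, had 8.61, 19.97, 11.7, 6.32 and 0.53 TPM over the control days and 138, 193, 273, 248 and 147 in OKS + FoxO6, 12.4-fold higher (6.66 to 26.3). In each of these genes OKS + FoxO6 was above OKS + DsRed on all 5 days. Dusp26 and Neurog2 had 0 reads in DsRed day 3 and 23 and 24 in FoxO6 day 7. Try5 (0 and 59 reads), Defa23, Prl2c2, Pam16, Fam25c, Syne4 and the lincRNA RP24-168N14.2 were also among the highest and belong to families of near-identical copies or rest on under 60 reads, so they are uncertain. Of 15 complement, acute phase and chemokine genes tested, 2 were called higher (Serpina3n and Il1rn) and 3 lower (C1s1, Ccl7 and Vcam1), with a median of 0.39, or -0.02 with the length trend left in. The call of C1s1 was lost on CPM with TMM scaling.

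Some of the lowest genes were also below every control day. Tubb3, a neuronal tubulin, had 143, 97.2, 42.5, 32.3 and 50.6 TPM over the control days and 42.2, 18.3, 8.52, 3.83 and 1.85 in OKS + FoxO6, lower in OKS + FoxO6 on every day. With 56 and 3 reads its ratio was 22.4-fold lower, with a counting interval of 7.30 to 112. Vegfa, the endothelial growth factor, stayed at 40.6 to 80.6 TPM in the control and went from 61.5 through 18.0, 4.61 and 2.97 to 6.18 TPM in OKS + FoxO6, 6.45-fold lower in the compared pair (3.35 to 13.2). Igfbp3, an IGF binding protein, had 1459, 551.99, 724, 395 and 328 TPM in the control and 1080.4, 210.1, 161, 109 and 84.6 in OKS + FoxO6, 7.73-fold lower (6.596 to 9.11). Cdo1 (13.3-fold lower, 7.71 to 25.01), the Notch target Hey2 (12.4-fold, 6.90 to 24.7), the kallikrein Klk10 (12.2-fold, 4.87 to 39.3), the collagen Col25a1 (90 and 3 reads) and the heparan sulphate enzyme Hs6st2 (14.3-fold, 5.87 to 45.1) followed. Hey2, Klk10, Hs6st2, Tubb3, Igfbp3 and Vegfa lay below every control library by more than 2-fold without length correction, and so did Cdo1, by 1.05 on the log2 scale. Gabrb2, Klf12, Ttll2 and Cgref1 had 13 to 21 reads in DsRed day 3 and 0 in FoxO6 day 7, at least 4.62- to 7.46-fold lower. Susd1 and Adra1d had 20 and 21 reads against 1, and Atp5g2, which has near-identical copies, had 32 and 2. The neuropeptide genes Calca and Calcb were below the control range too, Calcb at 27.4 and 2.48 TPM and Calca at 8.10 and 0 TPM from too few reads for the test.

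**Figure D5:**
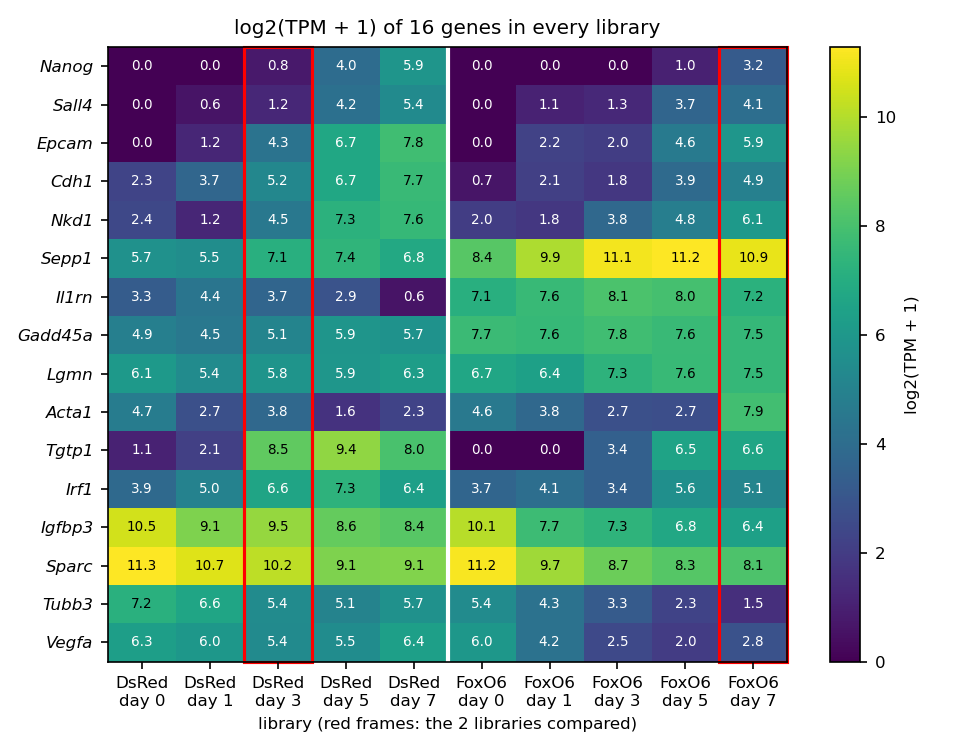
Level of 16 genes in every library, as log2(TPM + 1) printed in each cell and coloured from 0 (dark) upward, with the days of OKS + DsRed on the left and those of OKS + FoxO6 on the right. Red frames mark DsRed day 3 and FoxO6 day 7, between which Cdh1 is near level, Sepp1, Il1rn and Gadd45a are higher in FoxO6 day 7, and Igfbp3, Sparc, Tubb3 and Vegfa are lower.

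After the length step, few mitosis, replication and G1 genes were called, under the background shares. Of 34 mitosis genes none was called, and 32 had a negative difference, with a median of -0.39. Of 36 DNA replication genes 1 was called lower and 31 had a negative difference (median -0.26). The called gene was Cdc6, which loads the replicative helicase, at 18.1, 15.3, 27.0, 26.8 and 18.5 TPM in the control and 15.1, 13.9, 15.0, 13.7 and 4.90 in OKS + FoxO6, 4.24-fold lower (2.49 to 7.52). Of 20 G1 cyclin and CDK inhibitor genes 1 was called lower, Ccne2 (20.2 and 5.16 TPM), with a median of -0.39, and Ccnd2, a D-type cyclin, stood 1.97-fold lower (1.81 to 2.16), at 408 and 131 TPM. Of 20 p53 targets 2 were called lower, Fas and Plk2, with a median of -0.10, and none higher. The call of Fas was lost on CPM with TMM scaling, and with the length trend left in the median was -0.35 and 3 were called lower. Without the length step, 6 of 34 mitosis, 5 of 36 replication and 7 of 20 G1 genes were called lower, against 1507 of all 11651 genes. Each of these 3 lists was then above the share of all genes, so their place against the background depended on the length step.

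None of 23 glycolysis and glucose uptake genes was called against DsRed day 3 (median -0.19). Slc2a1, the glucose transporter GLUT1, had 49.9, 38.4, 47.5, 197 and 536 TPM over the control days and 85.8, 41.6, 51.5, 57.1 and 79.8 in OKS + FoxO6, so FoxO6 day 7 was above DsRed day 3 (1.98-fold after length correction, not called) and below days 5 and 7, against which this list was not counted. The lactate exporter Slc16a3 was at 7.29 and 1.81 TPM in the compared pair, from 11 reads and 1, and the lactate dehydrogenase Ldha at 345 and 304. Of 30 nuclear encoded respiratory chain genes and 20 cholesterol synthesis genes none was called, with medians of 0.01 and -0.13. With the length trend left in they were 0.23 and -0.34, with 1 respiratory chain gene called higher and 2 cholesterol genes called lower.

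Of 16 Wnt targets and antagonists 2 were called higher, the negative feedback genes Nkd1 (22.1 and 66.5 TPM, 3.37-fold, 2.36 to 4.91) and Notum (53.6 and 122 TPM, 2.28-fold, 1.71 to 3.05), both between DsRed days 3 and 5 in FoxO6 day 7. Compared on the same day, neither was above OKS + DsRed on all 5 days, and 1 was below on days 1 to 7. The list median was 0.20, or -0.17 with the length trend left in, where 2 were called higher and 3 lower. On CPM with TMM scaling 4 were called higher and 1 lower. Of 17 TGF beta and BMP targets 2 were called higher and 3 lower (median -0.18). With the length trend left in 3 were called higher and 4 lower (median -0.52), and the same counts came on CPM with TMM scaling (median -0.25). Ctgf and Cyr61, matricellular genes, were 4.25-fold (3.24 to 5.64) and 2.11-fold (1.56 to 2.88) higher. The BMP targets Id1 and Id2 were 2.86-fold (1.64 to 5.15) and 3.28-fold (2.29 to 4.77) lower, and the BMP antagonist Grem1 was 6.05-fold lower (3.56 to 10.97).

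Of 15 genes of the insulin and IGF axis 4 were called higher (Igf1r, Igfbp4, Igfbp7 and the imprinted H19) and 2 lower (Igfbp3 and the adaptor Grb14), with a median of -0.10, or -0.74 with the length trend left in. Of 20 ERK feedback and immediate early genes 2 were called higher (Spry1 and Ier3) and 2 lower (Dusp4 and Phlda1), with a median of -0.17, and the phosphatase Dusp5 stood at 15.3 and 9.26 TPM. Without the length step the IGF list had 2 called higher and 5 lower, and the ERK list 2 and 6. Of 23 unfolded protein and integrated stress response genes 2 were called higher, with a median of 0.34, or 0.13 with the length trend left in. They were Xbp1 at 51.5 and 111 TPM and the cystine transporter Slc7a11 at 11.4 and 23.6 (0.98 without length correction, not called). Of 26 chromatin regulators Hdac9, a class IIa deacetylase, was the call, at 0.59, 8.65, 21.2, 32.4 and 10.3 TPM in the control and 3.34, 32.4, 92.8, 98.2 and 35.8 in OKS + FoxO6, 2.26-fold higher in the compared pair (1.65 to 3.13). Hdac9 lost its call on uncorrected differences (0.72), where none of the list was called higher and 4 lower. The median of that list was -0.14, or -0.65 with the length trend left in.

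Markers of other cell types gave few tested genes. Marker sums are TPM without length correction, on which long transcripts such as collagens depend. The 8 fibroblast markers summed to 1961 TPM in DsRed day 3 and 1010 in FoxO6 day 7. The 6 epithelial markers summed to 92.7 and 134, and the 5 pluripotency markers to 6.41 and 49.2. Acta1, skeletal alpha actin, had 25.7, 5.72, 13.03, 2.11 and 3.81 TPM over the control days and 22.98, 13.2, 5.71, 5.57 and 236 in OKS + FoxO6, high in FoxO6 day 7 alone. Myh8, a skeletal myosin, followed the same pattern (1 and 25 reads). The 4 muscle markers Myod1, Myog, Acta1 and Myh3 summed to 13.03 TPM in DsRed day 3 and 236 in FoxO6 day 7. Of these, 3 were at 0 in DsRed day 3 and 1 in FoxO6 day 7, the muscle regulator Myog, which was at 0 in both. Of 24 muscle genes 5 passed the count filter, some of them through FoxO6 day 7 alone, and 2 were called higher (Acta1 and Myh8) and 1 lower (Mef2c). On CPM with TMM scaling the difference of Mef2c went from -1.21 to -0.06 and the list had 3 called higher and none lower. Of 12 neural genes 1 was called higher (Neurog2) and 4 lower (Tubb3, Stmn2 and Gap43 among them), with a median of -0.89. On uncorrected differences 8 of them were called lower. Of 13 endothelial genes 3 were tested, of which the receptors Kdr (8.18 and 20.8 TPM) and Tek (45.7 and 69.8 TPM) were called higher and Eng was not called (difference -0.67, adjusted p = 0.0473, exact binomial test), while Cdh5 and Emcn were at 0 in both libraries. Tek lost its call on uncorrected differences (0.60). Of 12 trophectoderm genes 4 were tested, with Tfap2a called higher and Gata2 lower. Compared on the same day, Tfap2a was below OKS + DsRed on each of the 5 days. Of 16 primitive endoderm genes 5 were tested and none was called, and of 14 macrophage genes 2 were tested and Cd68 was called lower. The macrophage markers summed to 35.1 TPM in DsRed day 3 and 30.7 in FoxO6 day 7, with Tyrobp at 0 in both. The part of other cells in these values was not tested.

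The called genes were followed in 4 libraries that are not in the comparison, with FoxO6 day 5 minus DsRed day 5 as a measure of the arm and DsRed day 7 minus DsRed day 1 as a measure of time. Of the 620 genes called higher, 203 (32.7%) were at least 2-fold higher in the arm contrast, against 7.63% of all genes tested, and 215 (34.7%) in the time contrast, against 10.8%. Both held for 39 (6.29%) and neither for 241 (38.9%), against 0.627% and 82.2% of all genes. In the opposite direction, 66 (10.6%, against 7.79% of all) were at least 2-fold lower in the arm contrast and 55 (8.87%, against 10.5%) in the time contrast. Of the 750 genes called lower, 156 (20.8%) were at least 2-fold lower in the arm contrast, against 7.79% of all, and 239 (31.9%) in the time contrast, against 10.5%. Both held for 27 (3.6%) and neither for 382 (50.9%), against 0.438% and 82.1% of all. At least 2-fold higher were 54 (7.2%, against 7.63% of all) in the arm contrast and 86 (11.5%, against 10.8%) in the time contrast, near the shares of all genes. The arm contrast alone held for 164 of the genes called higher (26.5%, against 7.004% of all) and 129 of those called lower (17.2%, against 7.36%). The time contrast alone held for 176 (28.4%, against 10.2%) and 212 (28.3%, against 10.1%).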

How the data were processed

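RNA-seq of MEFs under OKS + DsRed and OKS + FoxO6 was grouped by the labels, with 1 library per arm and day. The authors aligned reads with Bowtie2 and RSEM to mm10 with GENCODE M13 and deposited expected counts, without normalization, together with TPM. The deposited FPKM values were not used here. The labels name a VAHTS mRNA-seq V3 kit and the methods a TruSeq kit, so the kit is uncertain. No replicates were pooled.

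Differences were taken in log2(TPM + 1), which understates the change of low genes. A lowess curve (span 0.3) on log2 effective length was removed, and expected counts were rounded for the exact binomial test (both tails doubled, Benjamini-Hochberg). Folds and their 95% intervals come from the counts at equal TPM, length trend removed, and cover counting error only. Folds against 0 reads are counts per library total against 3 reads. The 31 lists, like the comparison itself, were chosen with earlier results of these data known. Named genes were the 12 highest and 12 lowest called, the 4 most different per list, genes with primers in the study and the 6 farthest above and below the control range, with predicted genes and pseudogenes left out. Most other called list members are named as well, and Krt8, Esrp2, Thy1, Twist1, Zeb1, Col1a1, Ldha, H2-K1, H2-D1, B2m, Tfeb and Tfe3 were chosen after their values were seen. Single-gene results of some list members are not reported here. Coordinates are from GENCODE M21 on GRCm38.

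Statistics used edgeR 4.0.16 and DESeq2 1.42.0 (size factors) under R 4.3.3, and scipy 1.17.1, numpy 2.4.6, statsmodels 0.14.6 and pandas 2.3.3 under Python 3.11.15, with figures from matplotlib 3.10.9. The test was run on simulated counts with counting error only and changes larger than 2-fold in well expressed genes. That run does not cover changes near 2-fold, genes with few reads or the spread between cultures. Alternatives were CPM with TMM or DESeq2 size factors, other pseudocounts, filters and folds, the length trend left in or removed per library, and edgeR with an assumed dispersion of 0.1. The restriction to protein-coding genes was chosen after seeing the data.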

Additional observations from a re-analysis of the deposited data

How the results depend on the processing

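The depth of 1464719 and 1560854 counts limits genes under about 30 reads, and 1 library per arm and day leaves the spread between cultures unknown. No paired analysis of this comparison was possible, because each group had 1 library and the labels give no replicate numbers. Pairing the arms by day would measure another contrast and was not done. The number of genes called higher was 620 and of genes called lower 750. With a fold over 4 they were 179 and 178, with edgeR at a dispersion of 0.1 they were 85 and 79, with the length trend left in 475 and 1507, and with a pseudocount of 5 they were 443 and 496. Under the other 8 alternatives both counts stayed within 1.5 times. The median place of FoxO6 day 7 among rising genes, 0.669, became 0.701 with the length trend of each library removed, 0.602 for genes changed at least 2-fold, 0.727 with a pseudocount of 0.1 and 0.715 on CPM. For DsRed day 3 it was 0.673 and became 0.629, 0.763, 0.754 with the same first 3 choices and 0.723 with at least 30 counts. Among falling genes, FoxO6 day 7 went from 0.871 to 0.823 with the length trend removed, and DsRed day 3 from 0.616 to 0.686 with the length trend removed, 0.580 with a pseudocount of 0.1 and 0.674 on CPM. Genes outside the control range by more than 4-fold numbered 48 above and 26 below in FoxO6 day 7 and 6 and 14 in DsRed day 3. With at least 30 counts, 101 were above in FoxO6 day 7, and 21 above and 19 below in DsRed day 3. With the length trend of each library removed, 190 were below in FoxO6 day 7. The median of 11 of the 31 lists moved beyond its interval, or for lists too small for one by more than a fixed margin, with the length trend left in, of 2 with at least 30 counts, and of 1 each on CPM and with a pseudocount of 0.1. Among 614 list members and named genes reported here, 593 stayed on their side of the threshold on CPM with TMM scaling, 14 passed it there and 7 no longer did. With the length trend left in, 532 stayed, 66 passed and 16 no longer did, and with a pseudocount of 0.1 607 stayed and 7 passed. Calls of named genes lost on CPM were those of Tcf4, Mef2c, Sesn3, Fas, Psmb8, Itgav and C1s1. The cause was not tested.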
